A study of Mus musculus with 7 samples.

Results

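The sarcomere and contractile genes examined here were 40 named genes of the muscle contractile apparatus, chosen by symbol. Of these, 37 had a row among the 23930 genes of the table, and Tnnc2, Myh7 and Tpm3 were not analysed here. The 37 genes were sorted by known role into 5 developmental, 10 adult fast, 7 slow or cardiac, 3 shared thin filament and 11 scaffold genes, with the muscle creatine kinase gene Ckm as a class of its own. Levels are given in RPM, a gene's reads divided by all reads assigned in the library and multiplied by 1000000. Genes averaging at least 1 RPM over the 7 libraries are called expressed below, which took in 34 of the 37 and 12504 of all genes.

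RNA came from hind leg muscle cells of Inducible Pax7-GFP mice on a C57BL/6 background that had been sorted by FACS for the green reporter. Mice were 12 weeks old at the start, were all given tamoxifen, spent 4 weeks in room air (normocapnia, libraries NC1 to NC3) or in 10% CO2 (hypercapnia, libraries HC1 to HC4), and were 16 weeks old at collection. By the study's methods both groups carried a tamoxifen-inducible Cre expressed from the Pax7 locus and a reporter behind a loxP-flanked stop, and both received cardiotoxin, a toxin that destroys myofibers, 3 days before collection. The labels do not mention the injury, the title of the deposited table carries a time of 40 hours that the sources used here do not tie to the injury, and the number in the C57BL/6 strain label rises by 1 from sample to sample, which was read here as a slip. The labels also do not say that each library was a separate mouse, so p-values measure the spread between these samples, which may be technical. Because recombination marks a cell for good, the gate can hold progeny of Pax7 cells as well as satellite cells, the resident stem cells of muscle. Depth was 14527445 to 23388710 reads a library, and 3 reads, taken as the floor, corresponded to 0.128 to 0.207 RPM.

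The sarcomere is the repeating unit of striated muscle, in which thick filaments of myosin pull on thin filaments of actin, tropomyosin and troponin. Satellite cells hold almost none of this machinery at rest. As their progeny differentiate, they first switch on embryonic and cardiac-type isoforms, such as cardiac actin, embryonic myosin and cardiac troponin T, and later replace them with adult fast or slow isoforms. Adult isoforms are abundant in mature myofibers. The comparison of normocapnia with hypercapnia therefore asked at which level each set of isoforms stood in the sorted cells of either group.

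To show what the windows before these genes look like, 3 promoters are given, 1 each from the developmental class (Actc1, cardiac actin), the shared thin filament (Acta1, skeletal actin) and the adult fast class (Myh4, myosin IIb). Each holds a CArG box, the motif bound by serum response factor. The 250 bases before the start site are printed from RefSeq on GRCm38.p6, 5′ to 3′ on the gene's strand, with CArG boxes and the E-box CAGCTG in capitals.
Actc1, chr2:114052876-114053125, minus strand: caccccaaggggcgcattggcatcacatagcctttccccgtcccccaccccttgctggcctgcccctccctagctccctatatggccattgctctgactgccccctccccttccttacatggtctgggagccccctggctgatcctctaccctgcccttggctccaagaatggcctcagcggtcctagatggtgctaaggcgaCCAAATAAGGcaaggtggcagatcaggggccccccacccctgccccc
Acta1, chr8:123894776-123895025, minus strand: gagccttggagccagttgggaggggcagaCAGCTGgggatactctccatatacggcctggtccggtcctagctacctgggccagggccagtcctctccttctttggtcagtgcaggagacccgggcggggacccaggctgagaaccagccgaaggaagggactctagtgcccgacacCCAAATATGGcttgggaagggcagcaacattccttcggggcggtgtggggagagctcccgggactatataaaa
Myh4, chr11:67237562-67237811, plus strand: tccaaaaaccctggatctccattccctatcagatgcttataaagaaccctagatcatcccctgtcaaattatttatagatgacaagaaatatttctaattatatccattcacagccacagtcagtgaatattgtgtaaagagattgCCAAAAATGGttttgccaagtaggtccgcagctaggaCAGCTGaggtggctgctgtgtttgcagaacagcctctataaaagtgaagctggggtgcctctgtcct
The CArG box began 47 bases before the start site in Actc1, 73 in Acta1 and 104 in Myh4. A CAGCTG began 221 bases before the start in Acta1 and 67 in Myh4, and none was found in the Actc1 window.

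A RefSeq window from 250 bases before to 50 after the start site was found for 30 of the 37 genes, and motifs were searched on both strands. A CArG box was present in 6 of the 30 (20%), namely Acta1, Actc1, Ldb3, Myh4, Myl3 and Myom1, against 1.81% of 27025 genes with a window. CAGCTG, an E-box of the kind bound by the myogenic factors, was present in 13 of the 30 (43.3%) against 18.3% of all genes, and the looser E-box CANNTG, which includes it, in 26 (86.7%) against 75%. A MEF2 site was found in 6 (20%), Myh1, Myh4, Myh8, Myom3, Myoz2 and Ttn, against 3.7%. The letters TATAAA were present in 12 (40%) against 15.7%. These matches describe the sequence and do not show that a factor binds there.

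The labelled cell type was compared with its markers before the groups were compared. Pax7, which defines satellite cells, stood between 4.34 RPM in NC3 and 268 RPM in NC1. Lyz2, a macrophage gene, stood between 8354 and 29108 RPM, so RNA of other cells was present in all 7 libraries. In such bulk samples fewer cells of a type and less RNA per cell cannot be told apart. Summed over the 37 sarcomere genes, the level was 10678, 2094 and 645 RPM in the normocapnia libraries, in the order NC1, NC2, NC3, and 1268, 815, 3003 and 4101 RPM in the hypercapnia libraries, in the order HC1, HC2, HC3, HC4. The same order is kept wherever values are listed. The highest and the lowest of the 7 sums were thus both normocapnia libraries, and the hypercapnia sums lay between them.

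**Figure D1:**
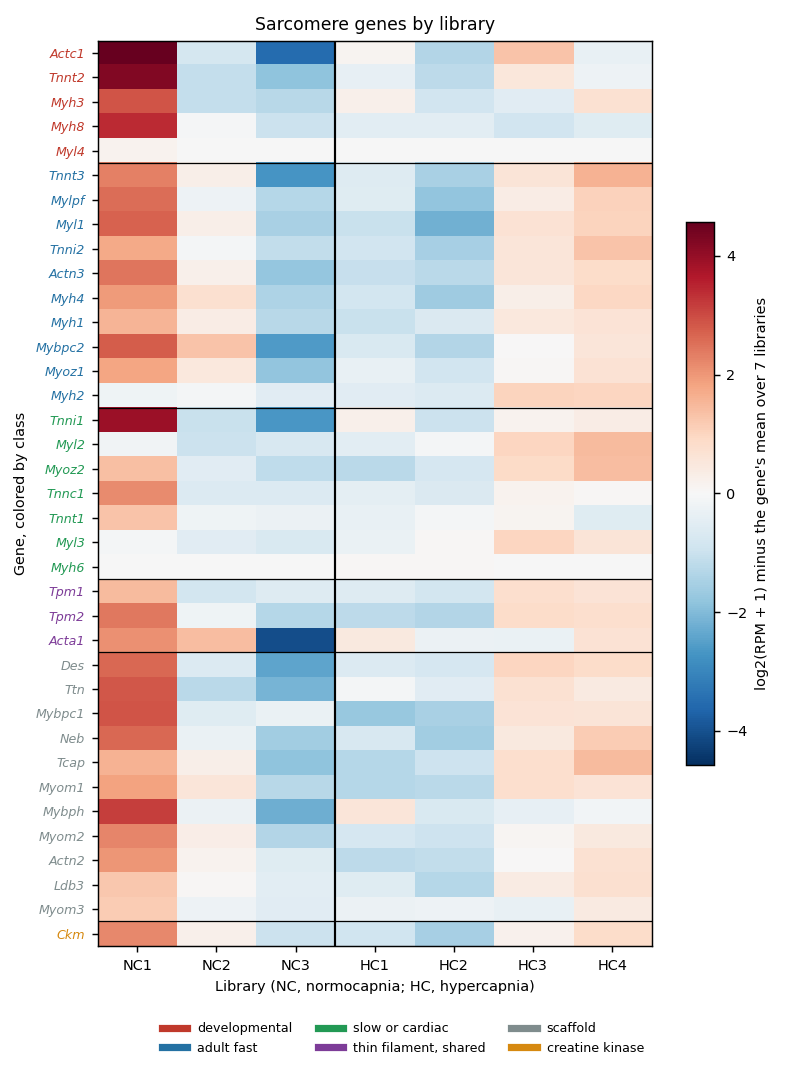
Each row is 1 of the 37 genes, grouped and colored by class, and each column 1 library; the color gives log2(RPM + 1) minus the gene's mean over the 7 libraries. NC1 is the highest library for 32 of the 37 genes and NC3 the lowest for 19.

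In limma, no sarcomere gene reached an unadjusted p under 0.05 between the groups. Differences are given as log2 fold changes of hypercapnia over normocapnia on the log2(RPM + 1) scale, which understates the change of low genes, and were tested with limma over all genes. A gene was called where its unadjusted p was under 0.05 and its change exceeded 1.5-fold, and by this rule limma called 0 of the 37 genes, beside 2.57% of all genes. At an unadjusted p under 0.05 alone it was 0 of 37 against 4.66% of all genes, and no gene of the whole table passed in limma after Benjamini-Hochberg adjustment, where 1114 had an unadjusted p under 0.05 and where edgeR passed 0 and DESeq2 passed 28. The 3 normocapnia and 4 hypercapnia values overlapped for all 37 genes, whereas they did not overlap for 4.83% of all genes. The estimate was above 0 for 9 genes and below 0 for 28, with a median of -0.35, compared with 0.16 over all expressed genes. Over the 34 expressed sarcomere genes the median was -0.40. The count models, which compare mean levels, gave lower medians, -0.91 in edgeR, -1.03 in edgeR without its filter and -1.03 in DESeq2, with 29 of 33, 32 of 37 and 32 of 37 estimates below 0, while the medians over all expressed genes were -0.01, 0.00 and -0.04.

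Count models made a few unadjusted calls. On the recovered reads edgeR called Myl2 higher, 1 of the 33 sarcomere genes that passed its filter, beside 6.03% of the 13293 genes that passed it. Without the filter edgeR called Actc1, Tnnt2, Myh8, Mybpc1 and Mybpc2 lower and Myl2 higher, 6 of 37 at 4.38% of all genes. DESeq2 gave no p for Actc1, Tnnt2, Tnni1 and Ttn. Of the 33 sarcomere genes with a p it called Myh8 and Mybpc2 lower and Myl2 and Myl3 higher, 4 in all, beside 6.25% of the 20858 genes with a p. None of the 37 passed after adjustment in either tool.

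**Figure D2:**
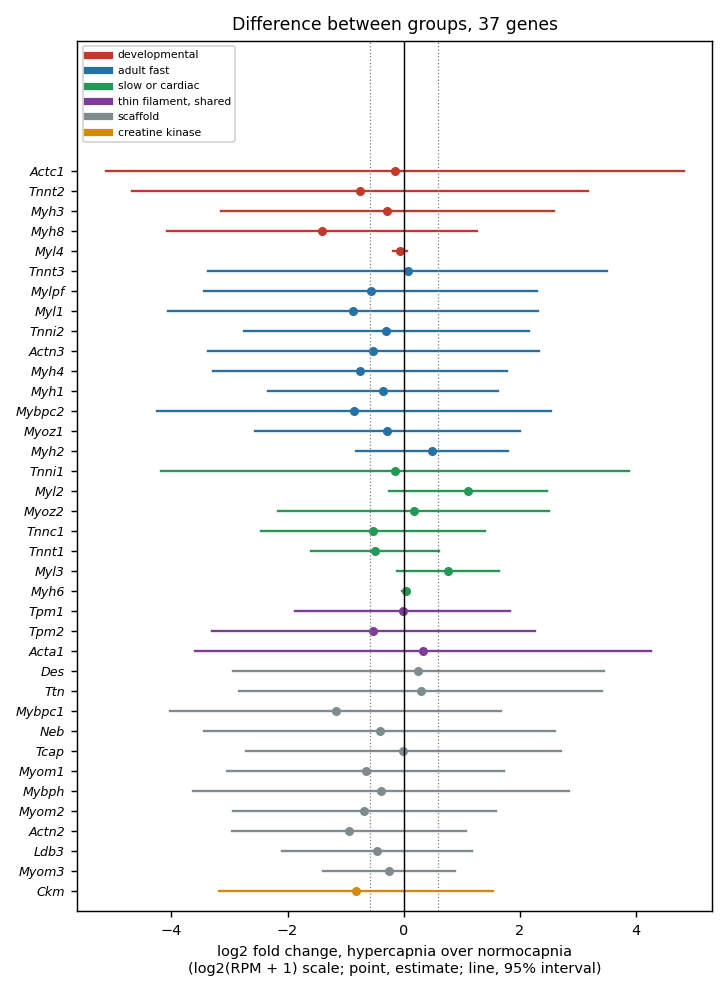
Points give the log2 fold change of hypercapnia over normocapnia for each of the 37 genes and lines its 95% interval from limma; dotted lines mark a fold change of 1.5 in either direction. All 37 intervals include 0, and those of Actc1, Tnni1, Tnnt2 and Acta1 are among the widest.

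Among the developmental genes, Actc1, the cardiac actin that early differentiating myocytes use, stood at 807, 18.4 and 2.0 RPM in normocapnia and at 36.0, 12.4, 83.2 and 25.7 RPM in hypercapnia. NC1 was the highest and NC3 the lowest of all 7, a gap of 404-fold within normocapnia against 6.71-fold within hypercapnia. The log2 fold change was -0.15 with a 95% interval of -5.12 to 4.82. The count models gave -2.57 in edgeR, -2.60 in edgeR without its filter, which called it, and -2.60 in DESeq2.

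Tnnt2, the cardiac troponin T of immature fibers, showed the same order at the top, with 117, 1.97 and 0.757 RPM in normocapnia and 3.85, 1.76, 8.00 and 4.40 RPM in hypercapnia. Its log2 fold change was -0.75 (SE 1.57) in limma, and -2.91, -2.95 and -2.94 in edgeR, edgeR without its filter and DESeq2. Myh3, embryonic myosin, stood at 19.1, 0.299 and 0.138 RPM in normocapnia and at 2.23, 0.502, 0.937 and 3.52 RPM in hypercapnia. Here all 4 hypercapnia libraries lay above NC2 and NC3 and below NC1, and NC3 held 2 reads of this gene.

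Myh8, neonatal myosin, stood at 19.8, 0.898 and 0 RPM in normocapnia and at 0.385, 0.402, 0.062 and 0.339 RPM in hypercapnia. The hypercapnia libraries held between 1 and 9 reads of it, and its log2 fold change of -1.40 (95% interval -4.07 to 1.26) was the lowest of the 37. For Myh8 this was -0.10 without NC1 and -2.29 without NC3. In limma all 5 developmental genes had estimates below 0, with a median of -0.28. The median was -2.57 over the 3 that passed the filter of edgeR and -2.60 in DESeq2. In edgeR without its filter it was -2.92, which was the value of Myl4 itself. Myl4, the embryonic and atrial light chain, is counted in all of these except the filtered edgeR median. It was seen only as 3 reads in NC1, at the floor, so its fold carries little information.

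**Figure D3:**
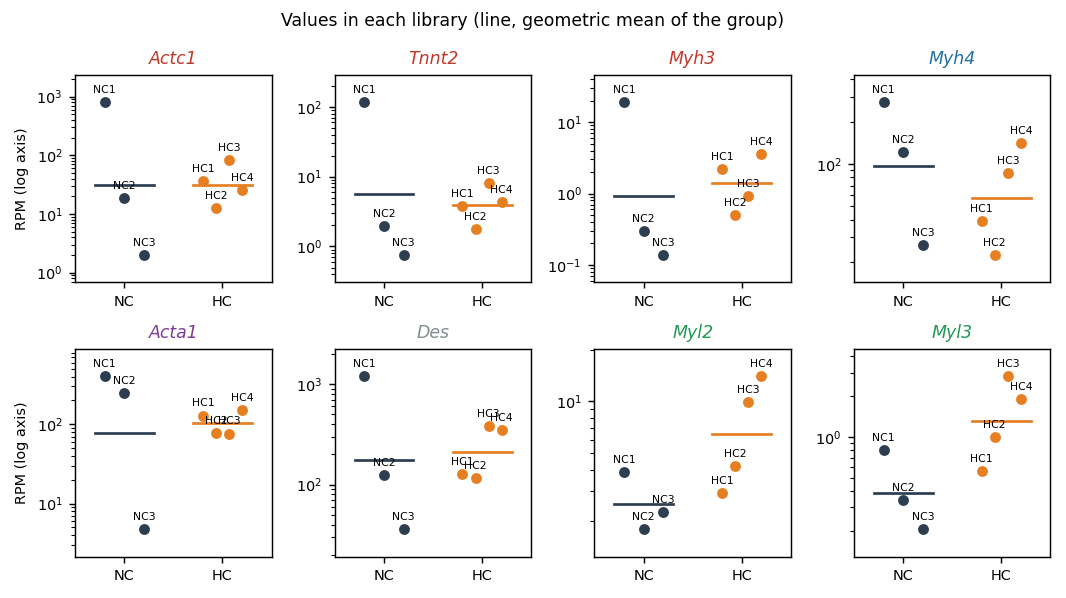
Points give RPM in each library on a log axis, for 8 genes, with normocapnia (NC) at the left and hypercapnia (HC) at the right of each panel; lines are the geometric means of the groups. NC1 is the highest library in the panels of Actc1, Tnnt2, Myh3, Myh4, Acta1 and Des, whereas the highest is HC4 for Myl2 and HC3 for Myl3.

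The adult fast genes were read across libraries and not against each other, since each is measured by its own amplicon. Tnnt3, fast troponin T, stood at 1755, 430 and 55 RPM in normocapnia and at 238, 128, 541 and 1076 RPM in hypercapnia. Mylpf, the fast regulatory light chain, stood at 1580, 229 and 108 RPM in normocapnia and at 183, 77.2, 342 and 564 RPM in hypercapnia. Both were highest in NC1, then in HC4, and lay within a log2 fold change of 0.07 (SE 1.37) for Tnnt3 and -0.57 (SE 1.15) for Mylpf.

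Myl1, the fast essential light chain, stood at 1071, 203 and 59.5 RPM in normocapnia and at 82.2, 35.8, 266 and 340 RPM in hypercapnia. HC2 was its lowest library and the log2 fold change was -0.87 (SE 1.28). Of the adult fast myosin heavy chains, Myh4 (IIb) stood at 276, 121 and 26.4 RPM in normocapnia and at 39.2, 22.4, 85.4 and 140 RPM in hypercapnia, with a log2 fold change of -0.75 (SE 1.01). Myh1 (IIx) stood at 77.2, 32.9 and 10.2 RPM in normocapnia and at 12.2, 16.1, 36.3 and 40.2 RPM in hypercapnia, with a log2 fold change of -0.35 (SE 0.79). For both, HC3 and HC4 lay above HC1 and HC2.

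Myh2 (IIa) departed from its neighbours. It stood at 0.669, 0.812 and 0.344 RPM in normocapnia and at 0.342, 0.251, 2.87 and 2.84 RPM in hypercapnia, or 5 to 46 reads a library. HC3 and HC4 were its highest libraries and NC1 was not, and the log2 fold change was 0.49 (95% interval -0.82 to 1.79). The heavy chain genes are closely alike in sequence, and whether reads of one could count for another was not tested.

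Mybpc2, fast myosin-binding protein C, was added after its values were seen. It stood at 65.0, 23.5 and 0.620 RPM in normocapnia and at 5.09, 2.86, 8.87 and 13.4 RPM in hypercapnia, so that NC1 and NC2 lay above all hypercapnia libraries and NC3 below them. The remaining fast genes, Tnni2 (fast troponin I), Actn3 (the fast-fiber alpha-actinin) and Myoz1 (a Z-disc calcineurin-binding protein), had log2 fold changes of -0.30, -0.53 and -0.28 and were all highest in NC1. Of the 10 fast genes 2 had estimates above 0 and 8 below, with a median of -0.44.

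The slow and cardiac class held the genes whose estimates were highest. Myl2, the slow and cardiac ventricular regulatory light chain, stood at 3.88, 1.80 and 2.27 RPM in normocapnia and at 2.91, 4.22, 9.93 and 14.0 RPM in hypercapnia. The groups overlapped through HC1, which lay below NC1. Its log2 fold change was 1.10 (95% interval -0.26 to 2.46) with an unadjusted limma p of 0.0933 and an adjusted p of 0.915.

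Myl3, the matching slow essential light chain, was also added after its values were seen, and stood at 0.803, 0.342 and 0.207 RPM in normocapnia and at 0.556, 1.0, 2.81 and 1.90 RPM in hypercapnia. Its log2 fold change was 0.76 (95% interval -0.11 to 1.63) with an unadjusted limma p of 0.0763, the lowest of the 37, and HC1 again lay below NC1. Both light chains rested on few reads, 33 to 207 for Myl2 and 3 to 45 for Myl3.

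The other slow genes did not share this order. Tnni1, slow troponin I, which is also used in developing fibers, stood at 101, 2.35 and 0.069 RPM in normocapnia and at 6.89, 2.41, 6.62 and 7.51 RPM in hypercapnia, with NC1 far above the rest and a single read in NC3. Its log2 fold change was -0.15 (SE 1.61) in limma, and -2.29, -2.34 and -2.33 in edgeR, edgeR without its filter and DESeq2. Myoz2, a slow-fiber Z-disc protein, stood at 10.6, 2.14 and 1.03 RPM in normocapnia and at 0.899, 1.66, 7.18 and 11.0 RPM in hypercapnia, with NC1 and HC4 side by side at the top. Tnnc1 (slow troponin C) and Tnnt1 (slow troponin T) had log2 fold changes of -0.53 and -0.49 and were highest in NC1. Myh6, the atrial alpha heavy chain, was seen as 1 read each in HC1 and HC2 and was under the floor. Of the 7 slow genes 4, Myh6 among them, had estimates above 0 and 3 below. The limma median of 0.03 was the value of Myh6 itself, so it rests on those few reads. The median was -0.32 over the 6 that passed the filter of edgeR, which left out Myh6. In edgeR without its filter and in DESeq2, where Myh6 counts as a gene above 0, the median was 0.21.

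In the shared thin filament, Acta1, the actin of adult skeletal muscle, stood at 402, 251 and 4.75 RPM in normocapnia and at 129, 78.1, 76.5 and 151 RPM in hypercapnia. The 4 hypercapnia libraries were within 1.97-fold of each other and lay between NC2 and NC3, which spanned most of the 84.7-fold range of normocapnia. Its log2 fold change was 0.33 (SE 1.57). Tpm1, a tropomyosin that lies along the actin filament, stood at 474, 98 and 116 RPM in normocapnia and at 115, 96.0, 300 and 272 RPM in hypercapnia. Tpm2, the beta tropomyosin, stood at 631, 101 and 46.5 RPM in normocapnia and at 50.4, 46.1, 213 and 202 RPM in hypercapnia. Both were highest in NC1, with HC3 and HC4 above HC1 and HC2. Their log2 fold changes were -0.02 (SE 0.74) and -0.52 (SE 1.11). Some nonmuscle cells also use Tpm1 and Tpm2, and their part in these levels was not tested.

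The scaffold genes hold the filaments in register. Des, the intermediate filament desmin, stood at 1193, 125 and 35.9 RPM in normocapnia and at 126, 115, 382 and 345 RPM in hypercapnia. Ttn, the giant spring titin, stood at 165, 8.98 and 4.34 RPM in normocapnia and at 20.7, 15.4, 36.4 and 29.7 RPM in hypercapnia. In both genes NC1 was highest and NC3 lowest, and for Ttn all hypercapnia libraries lay above NC2 and NC3.

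Mybpc1, slow myosin-binding protein C, stood at 129, 11.0 and 13.2 RPM in normocapnia and at 4.37, 5.28, 26.2 and 25.4 RPM in hypercapnia. Here HC1 and HC2 were the lowest of all libraries, and the log2 fold change was -1.17 (95% interval -4.02 to 1.67). For Mybpc1 it was -0.07 without NC1 and -1.67 without NC3. The log2 fold change was 0.25 (SE 1.28) for Des and 0.29 (SE 1.25) for Ttn, the only scaffold genes with estimates above 0. The other 8, Neb (nebulin, along the thin filament), Ldb3, Tcap and Actn2 (Z-disc proteins), Myom1, Myom2 and Myom3 (M-band proteins) and Mybph (a myosin-binding protein), had log2 fold changes between -0.94 for Actn2 and -0.01 for Tcap. All 11 scaffold genes were highest in NC1, and their median log2 fold change was -0.41 in limma. The scaffold median was -0.99 in edgeR, over the genes that passed its filter, and -1.03 in edgeR without its filter and in DESeq2. Ckm, which buffers ATP for contraction, stood at 320, 81.2 and 34.4 RPM in normocapnia and at 37, 23.7, 79.5 and 124 RPM in hypercapnia, with a log2 fold change of -0.82 (SE 0.95).

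The next comparison asked how the libraries ordered the genes. NC1 was the highest of the 7 libraries for 32 of the 37 genes (86.5%), and for 31.4% of all expressed genes. The exceptions were Myh2 and Myl3, highest in HC3, Myl2 and Myoz2, highest in HC4, and Myh6. NC3 was the lowest for 19 of the 37 (51.4%), close to 49.0% of all expressed genes. Within hypercapnia the highest library was HC3 or HC4 for 33 of the 37 (89.2%), against 64.8% of all expressed genes. In the lists described below this held for all 10 satellite, 10 fiber metabolism, 7 smooth muscle and pericyte, 6 endothelial and 6 neutrophil genes. It held for 0 of 10 macrophage genes. These counts describe the 7 libraries, were made after the values were seen and carry no test.

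NC1 stood above the others by unequal amounts in the different classes. The level in NC1 divided by the median of the other 6 libraries was 26.6 to 54.8 for 4 developmental genes (Myh3, Actc1, Tnnt2 and Myh8, median 38.5). It was 1.16 to 9.31 for the 10 fast genes (median 5.12), 3.27 to 14.7 for the 11 scaffold genes (median 9.12) and 3.89 to 8.31 for Acta1, Tpm1 and Tpm2. Among 6 slow genes it ran from 1.03 for Myl3 to 22.4 for Tnni1. The ranges of the developmental and the fast genes did not meet, and over all expressed genes the median ratio was 1.23. High ratios were not limited to developmental sarcomere genes. Among the differentiation and fusion genes described below the ratio ran from 1.65 for Mef2c to 42.1 for Cdkn1c. For Myh8 the median of the other libraries was only 0.362 RPM.

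**Figure D4:**
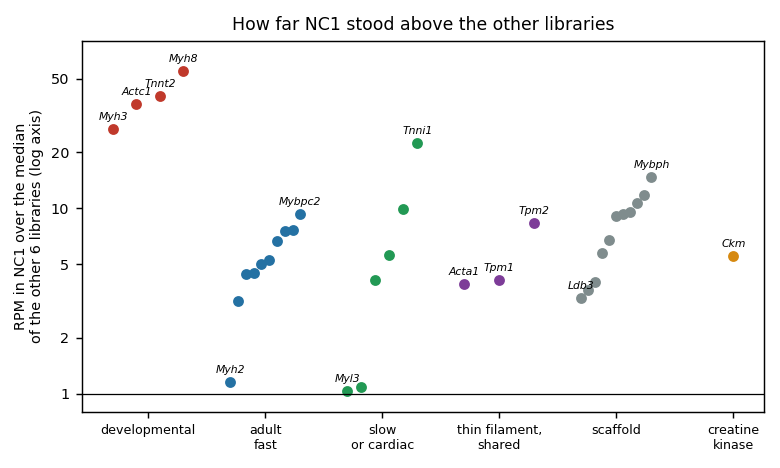
Each point is 1 gene, and its height on the log axis gives RPM in NC1 divided by the median of the other 6 libraries, by class; Myl4 and Myh6, which were at or under the floor, are left out. The 4 developmental genes lie at 26.6 or above and all 10 fast genes at 9.31 or below.

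To follow the balance between immature and adult isoforms within a library, isoform pairs were expressed as ratios, which compare libraries and not the genes' own levels. Actc1 over Acta1 was 2.01, 0.0734 and 0.42 in normocapnia and 0.28, 0.159, 1.09 and 0.17 in hypercapnia. Myh3 over Myh4 was 0.0693, 0.00247 and 0.00522 in normocapnia and 0.0567, 0.0224, 0.011 and 0.0251 in hypercapnia. Tnnt2 over Tnnt3 was 0.0668, 0.00457 and 0.0138 in normocapnia and 0.0162, 0.0138, 0.0148 and 0.00409 in hypercapnia. In each of these ratios NC1 was the highest library and the groups overlapped. The ratios of Myh8 over Myh4 and of Tnni1 over Tnni2 overlapped between the groups as well. The mean log2(RPM + 1) of the developmental genes minus that of the fast genes was -2.37, -4.40 and -3.40 in normocapnia and -2.83, -2.92, -3.84 and -4.51 in hypercapnia, so HC1 and HC2 lay above NC2 and NC3, and HC4 below both.

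Leaving out NC1 turned the direction of the median difference, which stayed below 0 without any of the other 6 libraries (-1.26 to -0.06). The -0.06, without HC2, was the value of Myl4, at the floor, and 15 of the 37 estimates were then above 0 and 22 below. Without NC1, 33 of the 37 estimates were above 0 with a median of 0.54. The class medians were then 1.07 for the developmental, 0.50 for the fast, 0.90 for the slow, 0.69 for the thin filament and 0.25 for the scaffold genes. limma then called Tnni1 (log2 fold change 1.77, unadjusted p = 0.0456) and Ttn (1.79, unadjusted p = 0.0136) higher in hypercapnia, 2 of 37 where 8.32% of all genes were called. The groups no longer overlapped for 5 genes (Myl2, Myl3, Myh3, Tnni1 and Ttn), where this held for 18.4% of all genes. Without NC3, 33 of the 37 estimates were below 0 with a median of -1.26, and the class medians in the same order were -1.89, -1.33, -0.35, -1.33 and -1.34. Acta1 (-1.61, unadjusted p = 0.0126) and Mybpc2 (-2.40, unadjusted p = 0.0237) were then called lower by limma, 2 of 37 at 2.57% of all genes, and the groups of Acta1, Mybpc2 and Myh8 did not overlap, 3 of 37 at 10.8%. Without HC1, limma called Myl2 (1.42, unadjusted p = 0.0363) and Myl3 (0.97, unadjusted p = 0.0269) higher, 2 of 37 at 1.61% of all genes, and these were the 2 genes whose groups did not overlap, at 5.79% of all genes. None of these calls passed after adjustment over all genes.

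**Figure D5:**
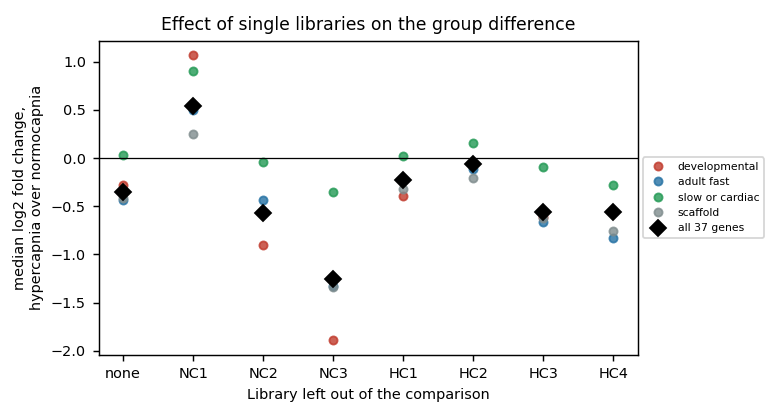
Each column shows the comparison with 1 library left out, with the full comparison at the left; black diamonds give the median log2 fold change of hypercapnia over normocapnia over the 37 genes and colored points the medians of 4 classes. The median over the 37 genes is 0.54 without NC1 and -1.26 without NC3.

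Other genes of the contractile and metabolic apparatus were read in the same way. Calls in these lists are limma's unless another tool is named, edgeR stands for the fit with its filter unless said otherwise, and genes called by another tool alone were named after their values were seen. Of 30 further sarcomere genes, limma called 1, near the 2.57% of all genes. This was Xirp1, which binds actin at sites of fiber remodelling. It stood at 2.81, 2.05 and 1.10 RPM in normocapnia and at 0.128, 0.201, 1.0 and 0.812 RPM in hypercapnia, with all hypercapnia libraries below all normocapnia libraries. The log2 fold change of Xirp1 was -0.96, with an unadjusted limma p of 0.0227 and an adjusted p of 0.915, and HC1 held 3 reads of it, at the floor. edgeR and DESeq2 called it lower as well. With 1 library left out its log2 fold change ran from -1.20 to -0.77. The limma call of Xirp1 was lost when NC1, NC2, HC1 or HC2 was left out (unadjusted limma p between 0.0528 for HC1 and 0.0752 for NC1) and with the larger pseudocount, 5 RPM, and edgeR without its filter did not call it. Tnni3, cardiac troponin I, was the other gene whose groups did not overlap, which makes 2 of 30 beside 4.83% of all genes. It had a log2 fold change of -0.90, and edgeR and DESeq2 called it lower, while DESeq2 also called Myh13, an eye muscle myosin, higher. Flnc (filamin C), Klhl41 and Myot, the other sarcomere genes described by level, had log2 fold changes of 1.87, -0.64 and -0.87 and were called by none of limma, edgeR and DESeq2. NC1 was the highest library for 22 of the 30.

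limma, edgeR and DESeq2 called none of 10 fiber metabolism genes, and 8 had estimates above 0, including 0.43 for Aldoa (aldolase A), 0.62 for Eno3 (muscle enolase) and 0.80 for Pvalb (parvalbumin of fast fibers). Their median log2 fold change was 0.43 in limma, but 0.01 in edgeR and -0.43 without NC3, where 9 of the 10 were below 0. Over the 10 fast sarcomere genes these medians were -0.44, -0.89 and -1.33. Without NC1 both medians were above 0, at 1.26 for fiber metabolism (9 of 10 above 0) and 0.50 for the fast genes (10 of 10). Of 6 measured differentiation and fusion genes limma called none, and all 6 were highest in NC1. Myog (myogenin), which marks the onset of differentiation, stood at 871, 17.8 and 0.138 RPM in normocapnia and at 57.2, 30.0, 143 and 64.2 RPM in hypercapnia. It thus had the same highest and lowest library as Actc1. Cdkn1c, a cell cycle inhibitor of differentiating cells, was also highest in NC1 with a log2 fold change of -0.47, and Mef2c, a partner of the myogenic factors, had one of -0.49 with groups that did not overlap, 1 of the 6 beside 4.83% of all genes. edgeR without its filter called Cdkn1c lower, and DESeq2 called Mef2c lower.

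Markers of other cells moved with the libraries too. Of 10 satellite and myoblast genes 8 were highest in NC1, and limma called none. Myod1, Cdh15 and Sdc4 had log2 fold changes of 1.76, 0.89 and -0.51, and edgeR and DESeq2 called Sdc4 lower. Myod1 stood at 0.67 in edgeR, 0.64 without NC3 and 3.18 without NC1. In limma 6 of the 10 genes had estimates above 0, with a median of 0.23. In edgeR it was 2 of the 9 that passed its filter, with a median of -0.63. The summed level of these 10 ran from 507 RPM in NC3 to 2121 RPM in NC1, and from 659 to 1111 RPM in hypercapnia, with Msc at 0 in NC3. Sdc4 alone made up 441 RPM of the NC3 sum and 781 RPM of the NC2 sum, and the other 9 summed to 65.7 to 1398 RPM in normocapnia and 230.2 to 662 RPM in hypercapnia. The 10 macrophage genes summed to 11426 RPM in NC1 and 33356 RPM in NC3, the lowest and highest of all libraries, and to between 18704 and 23616 RPM in hypercapnia, with C1qa at 0 in NC3 and HC3. Lyz2 made up 29108 RPM of the NC3 sum. By the mean log2(RPM + 1) of the 10 genes NC1 (7.50) and NC3 (7.52) were the lowest libraries and HC1 (8.63) the highest. limma called 1 of the 10, Adgre1, higher in hypercapnia, where it called 2.57% of all genes, and both edgeR fits and DESeq2 called it too. Its log2 fold change was 1.31, and between 1.03 and 1.58 with 1 library left out. The limma call was lost without NC1, NC3, HC1 or HC2 (unadjusted p between 0.0849 and 0.126) and with median-of-ratios scaling.

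The 6 endothelial genes, all of them highest in HC3, summed to between 88.5 and 216 RPM in normocapnia and between 45.5 and 491 RPM in hypercapnia, and none was at 0 in any library. For 7 measured smooth muscle and pericyte genes the sums were 126 to 1871 RPM and 159 to 775 RPM, with none at 0. Acta2 alone made up 1674 RPM of the highest sum, that of NC1, whereas 5 of the 7 genes were highest in HC3. Neutrophil genes, 6 in all, summed to 81.5 to 222 RPM and 105 to 323 RPM, with Ly6g at 0 in NC2 and HC2. limma called 1 of the 6, Mmp8, higher, where it called 2.57% of all genes, and edgeR and DESeq2 called it and Csf3r higher. The log2 fold change of Mmp8 was 1.25 in limma. Its limma call was lost with median-of-ratios scaling, where it stood at 1.10 (unadjusted limma p of 0.0533). Fibro-adipogenic genes (6, none at 0 and none called by limma, edgeR or DESeq2) summed to 1034 to 1767 RPM and 935 to 2230 RPM. The 4 measured proliferation genes summed to 28.2 to 323 RPM and 208 to 305 RPM, and limma called none of them, whereas edgeR and DESeq2 called Mcm2 higher. All 4 had estimates above 0 in every setting. Their median log2 fold change was 1.62 in limma, 1.08 in edgeR, 0.89 without NC3 and 2.68 without NC1. The part of these cells and of proliferation in the sarcomere gene levels was not tested. Nonmuscle contractile genes, 6 of which were measured, had log2 fold changes between -0.73 for Myl12a and 0.97 for Myh10, with 0.27 for Actb and -0.14 for Myh9. limma called none of the 6, and edgeR and DESeq2 called Myl12a lower.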

How the data were processed

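The authors made Ion AmpliSeq transcriptome libraries, in which each gene is represented by a short amplicon, and deposited gene values in RPM, reads scaled to a fixed total in every library. The submitters' processing notes name Transcriptome Analysis Console, and the aligner was not given in the sources used here, nor was the genome build. Whole reads were recovered from the RPM steps for 100% of values (tolerance 0.05 reads) and used in edgeR and DESeq2. Low values can rest on a few reads, and PCR reads are not independent molecules, so the floor covers counting error only.

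Groups came from the labels (3 normocapnia, 4 hypercapnia). R 4.3.3 and limma 3.58.1 gave the main test, run unfiltered on log2(RPM + 1) of 23930 genes and tested on simulated data first. Calls required p under 0.05 before adjustment and more than 1.5-fold change, with Benjamini-Hochberg adjustment over all genes. The alternatives were pseudocounts of 0.1 and 5 RPM, median-of-ratios scaling, keeping genes that averaged 1 RPM, edgeR 4.0.16 with and without its filter, DESeq2 1.42.0, a replicate block and leaving out each library. Motifs were searched in RefSeq promoter windows on GRCm38.p6.

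The genes and lists were chosen with earlier results of these data known. Full values were given for the 3 genes of highest mean RPM in each class, any gene called or without overlap, and the myosin heavy chains. In the other muscle lists the 3 genes of highest mean RPM and any gene called were named.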

Additional observations from a re-analysis of the deposited data

Results flagged for a closer look

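Of 22 sarcomere genes examined, 2 had a library that stood apart from the other 3 of hypercapnia on the log2(RPM + 1) scale. Tnni1 stood at 2.41 RPM in HC2, below 6.62 to 7.51 RPM in the other hypercapnia libraries. Myh8 stood at 0.062 RPM in HC3, a single read, below 0.339 to 0.402 RPM in the others. By chance about 5% of such groups of 4 are picked out in this way.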

How the results depend on the processing

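The count of sarcomere genes called was 0 with limma under each pseudocount, the filter, median-of-ratios scaling and the replicate block, and was 1 with edgeR, 6 with edgeR without its filter and 4 with DESeq2. Over all genes, edgeR without its filter called 1049 and DESeq2 1304 against 615, and DESeq2 left 28 genes after adjustment against 0. Leaving out each library gave 376 to 1990 genes called, 0 to 8 after adjustment, 0 to 2 sarcomere genes called and 0 to 5 without overlap between the groups.

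Estimates that changed sign belonged to genes that limma did not call. With a pseudocount of 0.1 RPM the log2 fold change of Myh3 became 0.31 and that of Tnni1 0.66. Median-of-ratios scaling gave -0.0713 for Tnnt3. edgeR, edgeR without its filter and DESeq2 gave -0.46, -0.51 and -0.50 for Tnnt3, -0.88, -0.92 and -0.91 for Acta1, -0.72, -0.76 and -0.76 for Des, -0.996, -1.03 and -1.03 for Ttn, -0.10, -0.16 and -0.15 for Pvalb, -0.25, -0.28 and -0.29 for Eno3, -1.76, -1.80 and -1.80 for Myog, and -0.76, -0.80 and -0.80 for Cdh15. For Flnc edgeR without its filter and DESeq2 gave -0.0177 and -0.0162, and DESeq2 gave -0.0321 for Actb. The count models compare mean levels, in which a high library weighs more than on the log scale. Whether this changed the signs was not tested.

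With 1 library left out the log2 fold change ranged from -1.95 to 2.09 for Actc1, -1.89 to 1.15 for Tnnt2, -1.0 to 1.07 for Myh3, -1.25 to 1.24 for Tnnt3, -1.39 to 0.54 for Mylpf, -1.85 to 0.22 for Myl1, -1.66 to 0.00698 for Myh4, -1.08 to 0.32 for Myh1, -2.40 to 0.27 for Mybpc2, -1.52 to 1.77 for Tnni1, -0.35 to 0.90 for Myoz2, -1.61 to 1.46 for Acta1, -0.44 to 0.69 for Tpm1, -1.33 to 0.54 for Tpm2, -0.69 to 1.79 for Ttn, -0.88 to 1.63 for Des and -1.55 to 0.0379 for Ckm. In the other lists it ranged from -1.82 to 0.76 for Klhl41, -0.20 to 0.95 for Aldoa, -0.92 to 2.33 for Pvalb, -0.34 to 1.89 for Eno3, -0.997 to 3.79 for Myog, -2.22 to 1.76 for Cdkn1c, -0.05 to 2.63 for Cdh15 and -0.38 to 0.10 for Myh9. Where no value above shows it, the cause was not tested.

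With the replicate block the median log2 fold change of the sarcomere genes was -0.56, Tnnt3 stood at -0.45 and Myoz2 at -0.28, Xirp1 (-1.06) and Mmp8 (1.24) were not called, and HC4, which has no partner, drops out of the estimate. Whether the replicate numbers pair the samples is not known. Libraries of equal number correlated at -0.35, 0.50 and -0.04 (Pearson, deviations from group means over 12504 genes). Deviations from a group mean are tied to each other within the group, so these few correlations cannot decide it. Values at or under 3 reads carry little information.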
